A study of Drosophila melanogaster with 2 samples.

Results

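The subject is 9 genes of Drosophila melanogaster blood cells, measured in larvae that carried extra B52, a splicing factor of the SR protein family. They were PPO1 and PPO2, the prophenoloxidases of crystal cells, and Hml, NimC1, eater, srp, Pxn, Col4a1 and vkg, genes of plasmatocytes. They were found as all array probes whose platform annotation gives exactly 1 gene symbol, or its current synonym, among these names. All 9 genes were present, out of 12236 named genes on the array, with 10 probes. Pxn had 2 probes and each other gene had 1.

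The larvae under study carried the cross written GMR X GFP-B52, in which B52 is fused to green fluorescent protein, and the control larvae carried GMR X GFP-NLS, the same fluorescent protein sent to the nucleus by a localisation signal. Both crosses shared GMR, in fly genetics a promoter of the developing eye, and the labels do not say whether blood cells made the transgene product. RNA of both kinds of larvae was hybridised together on 2 two-colour arrays with the dyes swapped. B52 RNA was in Cy5 on replicate 1 and in Cy3 on replicate 2. The control RNA of replicate 1 is labelled cytoplasmic and that of the other 3 channels polyA. As labelled, the cross and the kind of RNA cannot be told apart on replicate 1. The labels give no larval age, number of animals or strain background, and they do not say whether the arrays held separate RNA extracts, so every spread below may be technical. In RNA of whole animals, fewer cells of a type and less RNA per cell cannot be told apart.

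Insect blood cells, or hemocytes, are mostly plasmatocytes, which engulf microbes and dead cells and lay down extracellular matrix. Crystal cells are rarer and store prophenoloxidases, which are cut to active phenoloxidases on wounding or infection and drive the formation of melanin. Lamellocytes are flat cells that appear mainly after parasitisation and make their own prophenoloxidase, PPO3.

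The deposited value of a spot is a log ratio of the RNAs on that array, and the labels state neither its direction nor its log base. It was therefore read in both ways, called below by dye and by channel. The dye reading takes every value as Cy5 over Cy3, which needs a change of sign on replicate 2 before it is B52 over control. The channel reading takes both arrays as B52 over control as they stand. Thus a gene with opposite signs on the arrays has the same sign on both arrays in the dye reading, and a gene with equal signs has it in the channel reading. Above 0 thus means more RNA in B52 larvae under the reading given, and if the deposited ratio ran the other way round every sign in that reading would turn. Where a fold is printed, log10 comes before log2. Log ratios carry no level, so hemocyte content could not be judged from marker levels.

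The arrays differed as a whole. Over 12500 probes measured on both arrays the deposited values correlated with a Pearson r of 0.00949 and a Spearman rho of 0.0471, across probes that share the same arrays and are not replicates, values near 0 that do not settle which reading holds. The SD of the deposited values was 0.191 on replicate 1 and 0.2 on replicate 2. B52 itself, measured by 5 probes, averaged -0.0892 ± 0.0662 by dye and -0.0468 ± 0.126 by channel (SD, n = 2 arrays), so B52 RNA was not measured higher in the B52 larvae under either definition. Both means would be above 0 if the deposited ratio ran the other way round. The lowest limma adjusted p of a B52 probe was 0.582 by dye and 0.801 by channel.

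The prophenoloxidase probes had opposite signs on the 2 arrays, and their dye-reading means lay farther from 0 than those of the plasmatocyte genes. This order did not hold for each array or for the channel reading: on replicate 2 eater, at -0.287, lay farther from 0 than PPO1, at -0.241, and by channel the mean of PPO2 was nearer to 0 than that of 5 plasmatocyte genes. In the dye reading the prophenoloxidase pair had a median log ratio of 0.448 and the 7 plasmatocyte genes one of 0.076, beside -0.0075 over all 10584 genes tested. The same medians by channel were 0.068 and -0.032, beside 0.0085 over all genes. No member probe passed the test: limma with Benjamini-Hochberg adjustment over all 12500 probes called 0 of the 9 testable member probes in either reading, as it called 0 of all probes (0% called). At an unadjusted limma p under 0.05 there were 2 member probes in the dye reading, both prophenoloxidases, against 6% of all probes. By channel there were 0, against 6.52% of all probes.

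**Figure D1:**
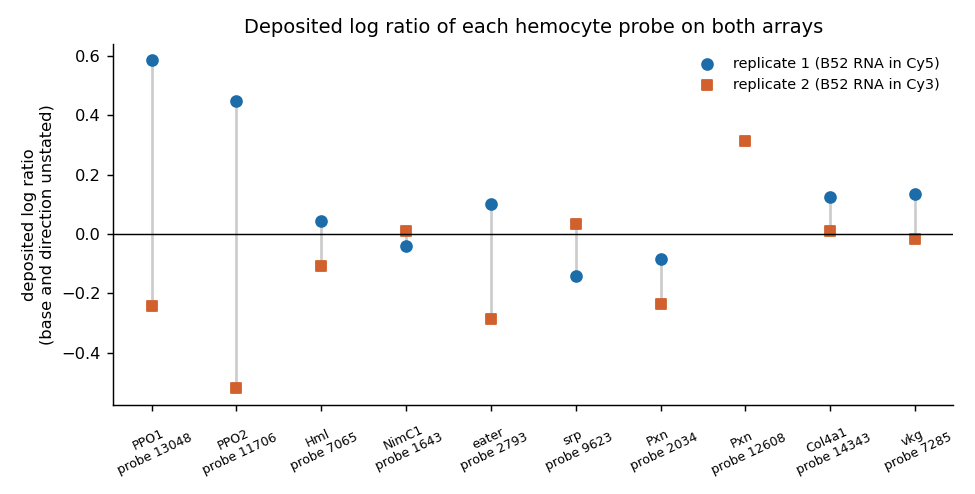
Deposited log ratio (vertical axis, base and direction unstated) of each of the 10 hemocyte probes on replicate 1 (circles) and replicate 2 (squares), with a grey line joining the values of 1 probe. The 2 prophenoloxidase probes had the widest gaps, between 0.585 and -0.241 for PPO1 and between 0.447 and -0.519 for PPO2, and 1 Pxn probe had a value on replicate 2 alone.

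PPO2 encodes a prophenoloxidase stored in the crystals of crystal cells. Its probe 11706 had 0.447 on replicate 1 and -0.519 on replicate 2 as deposited, values of nearly the same size and opposite sign. On replicate 1, 444 of 12500 probes (3.55%) lay farther from 0, and on replicate 2, 267 probes (2.14%). Its dye-reading mean was 0.48 ± 0.05 (SD, n = 2 arrays), or 3.04-fold on a log10 scale and 1.40-fold on a log2 scale. The limma 95% interval of that mean ran between 0.251 and 0.715, with an unadjusted p of 0.00188 and an adjusted p of 0.363. Limma takes the variance of a probe partly from all tested probes, so neither this interval nor those below rest on the 2 values of a probe alone. Read by channel the arrays opposed each other, and the mean was -0.036 ± 0.683 (limma adjusted p = 0.993).

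PPO1, long known as Black cells, encodes the prophenoloxidase that crystal cells release early after injury. Its probe 13048 had 0.585 on replicate 1 and -0.241 on replicate 2 as deposited, again of opposite sign but of unequal size. On replicate 1, 203 probes (1.62%) lay farther from 0, whereas on replicate 2 there were 2184 (17.5%). Its dye-reading mean was 0.41 ± 0.24 (SD, n = 2 arrays), or 2.59-fold on a log10 scale and 1.33-fold on a log2 scale. The limma 95% interval ran between 0.133 and 0.693, with an unadjusted p of 0.0105 and an adjusted p of 0.543. The channel-reading mean was 0.172 ± 0.584 (limma adjusted p = 0.953), a spread wider than the value.

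The spots were taken in 48 blocks of consecutive probe numbers, whose medians differed across each array. Whether the block of a probe affected its value was not tested. The PPO2 spot stood in a block with medians of 0.013 and -0.021 on replicates 1 and 2, and the PPO1 spot in another with 0.0305 and 0.087. With block medians removed, the dye-reading mean of PPO2 was 0.466 and that of PPO1 was 0.441, close to the values above, with limma adjusted p of 0.389 and 0.407.

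**Figure D2:**
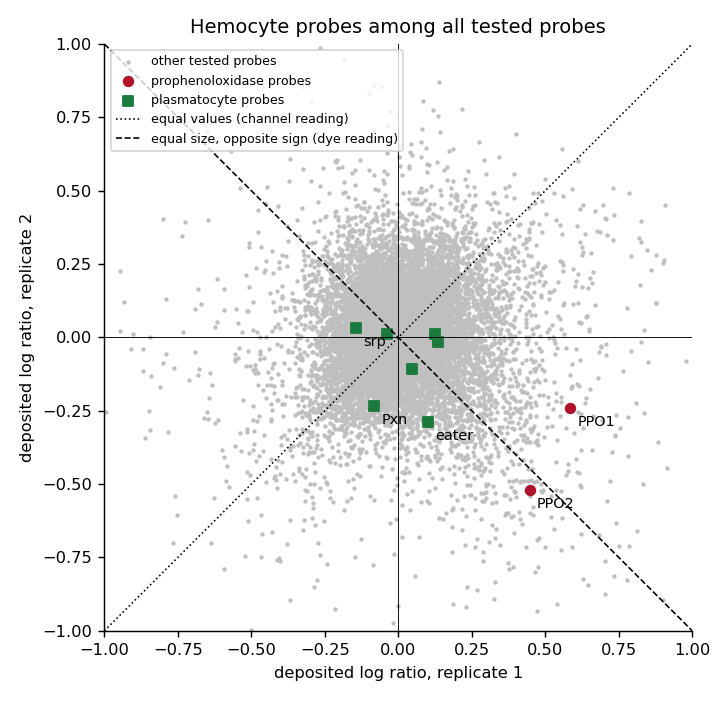
Deposited log ratio on replicate 1 (horizontal axis) against replicate 2 (vertical axis) for the tested probes, with 45 probes outside the drawn range of -1 to 1 on either axis. The PPO1 and PPO2 probes (circles) lay at the lower right, PPO2 near the dashed line of equal size and opposite sign and PPO1 away from it, and the 7 plasmatocyte probes (squares) lay within the bulk of the grey probes.

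Among the plasmatocyte genes, the phagocytic receptors gave values on either side of 0. The gene eater encodes a receptor of plasmatocytes that binds bacteria, and its probe had 0.1 on replicate 1 and -0.287 on replicate 2. The mean of eater was 0.19 ± 0.13 by dye (limma adjusted p = 0.992), the highest of the 7, and -0.0935 ± 0.274 by channel (adjusted p = 0.960; SD, n = 2 arrays). NimC1 encodes the Nimrod receptor that carries the P1 antigen used to mark plasmatocytes. Its probe had -0.04 on replicate 1 and 0.011 on replicate 2, among the member values nearest to 0 on both arrays, with means of -0.0255 ± 0.0205 by dye and -0.0145 ± 0.0361 by channel. Its block had medians of 0.086 and 0.085, and with these removed the means were -0.026 by dye and -0.1 by channel.

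Hml encodes hemolectin, a clotting protein whose promoter is widely used to drive transgenes in plasmatocytes. Its probe had 0.045 on replicate 1 and -0.109 on replicate 2. The mean was 0.077 ± 0.0453 by dye and -0.032 ± 0.109 by channel (SD, n = 2 arrays). Its block had medians of 0.081 and 0.188, higher than the probe on both arrays, and with these removed the means were 0.131 and -0.167. The gene srp encodes Serpent, the GATA transcription factor needed for hemocyte fate and also active in the fat body. Its probe had -0.143 on replicate 1 and 0.033 on replicate 2, the order opposite to that of Hml, eater and the prophenoloxidases. The srp means were -0.088 ± 0.0778 by dye and -0.055 ± 0.125 by channel, and with block medians removed they were -0.119 and 0.043.

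Pxn, Col4a1 and vkg belong to the extracellular matrix that plasmatocytes help to make. Pxn encodes peroxidasin, an enzyme that crosslinks collagen IV. Its probe 2034 had -0.083 on replicate 1 and -0.235 on replicate 2, the only tested member probe with negative values on both arrays as deposited. Its channel-reading mean was -0.159 ± 0.107 (limma adjusted p = 0.842), and its dye-reading mean was 0.076 ± 0.225 (limma adjusted p = 0.999; SD, n = 2 arrays). The other Pxn probe, 12608, had no value on replicate 1 and 0.312 on replicate 2, opposite in sign to probe 2034 on the same array. The 2 Pxn probes thus disagreed. With probe 12608 kept in the mean of replicate 2, the channel-reading mean of Pxn was -0.0223 in place of -0.159, and its dye-reading mean was -0.0607 in place of 0.076, a change of sign.

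Col4a1 and vkg encode the chains of collagen IV, the main collagen of basement membranes, and they are adjacent genes, with 0 other protein-coding genes starting between them in the RefSeq annotation of assembly Release 6 plus ISO1 MT. Col4a1 had 0.126 on replicate 1 and 0.011 on replicate 2, and vkg had 0.135 and -0.017. As deposited, the pair thus had almost the same value on each array, above 0 on replicate 1 and near 0 on replicate 2. Dye-reading means were 0.0575 ± 0.0969 for Col4a1 and 0.076 ± 0.0834 for vkg, and channel-reading means were 0.0685 ± 0.0813 and 0.059 ± 0.107 (SD, n = 2 arrays). With block medians removed, the pair lay farther apart on both arrays. Col4a1 then had 0.0845 and -0.1045, and vkg had 0.137 and -0.0335. The channel-reading means were then -0.01 for Col4a1 and 0.05175 for vkg. For the 7 tested plasmatocyte probes the limma adjusted p lay between 0.992 and 0.999 by dye and between 0.842 and 0.989 by channel. The limma 95% interval of each included 0 in both readings, and for eater in the dye reading it ran between -0.0517 and 0.439.

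**Figure D3:**
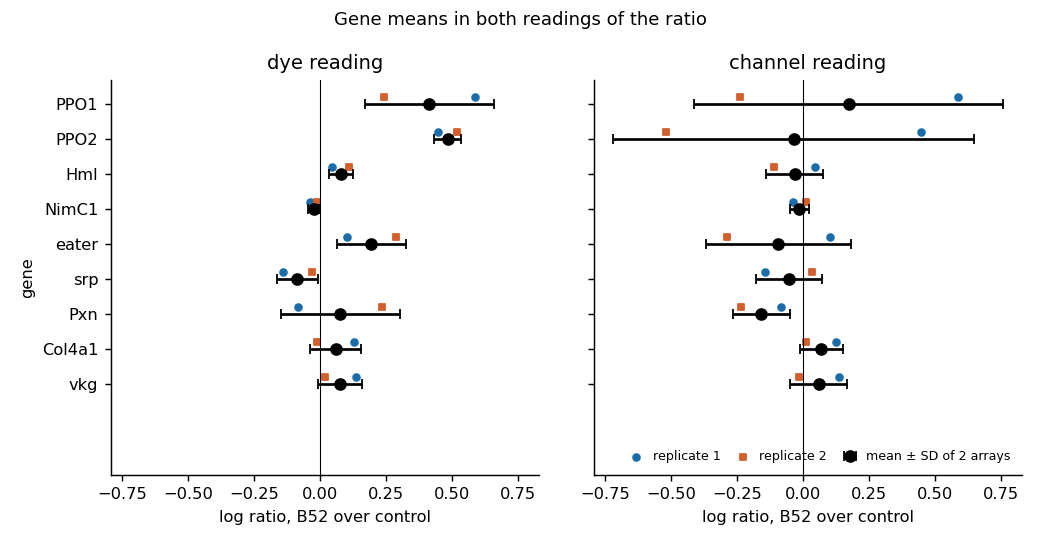
Mean log ratio of each gene as B52 over control (horizontal axis), read by dye (left) and by channel (right), with the SD of the 2 arrays as bars and the single arrays as small points. In the dye reading PPO1 and PPO2 lay at 0.41 and 0.48, and in the channel reading their bars crossed 0 widely.

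By sign, 5 of the 9 genes were positive on both arrays in the dye reading (PPO1, PPO2, Hml, eater and vkg), against 21.9% of all genes tested, and 2 were negative on both (NimC1 and srp), against 25.6%. These make 7 of 9 genes of the same sign on both arrays, against 47.5% of all genes. Read by channel, Col4a1 was positive on both arrays, against 28.1% of all genes, and Pxn was negative on both, against 24.3%, which makes 2 of 9 against 52.4%. Several of these signs rest on values near 0, such as -0.017 for vkg on replicate 2. With block medians removed, Hml (-0.036 and -0.297) and NimC1 (-0.126 and -0.074) no longer had the same sign on both arrays by dye, whereas Col4a1 (0.0845 and -0.1045) was then positive on both. By channel, Hml, NimC1 and Pxn were then negative on both arrays and 0 genes were positive on both. At a size of at least 0.301 on each array, which is 2-fold for log10 values, PPO2 was the only member in the dye reading. In that reading 140 of 10584 genes tested passed that size in either direction, and 1.13% of all genes were positive past it. In the channel reading 0 members passed it, where 0.728% of all genes were positive past that size.

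The other genes of hemocytes gave no common direction. Of 23 listed, 21 were measured on both arrays (in this and the lists below, the others had no probe naming 1 gene or no value on 1 of the arrays), with a median of 0.0145 by dye and 0.0405 by channel. Read by dye, 6 were positive and 7 negative on both arrays, against 21.9% and 25.6% of all genes tested. By channel 5 were positive and 3 negative, against 28.1% and 24.3%. Limma called 0 of their 21 tested probes in either reading, and 1 probe had an unadjusted p under 0.05 in each, against 6% of all probes by dye and 6.52% by channel. Nplp2, a neuropeptide precursor gene also expressed in hemocytes, had 0.397 on replicate 1 and -0.526 on replicate 2, and its dye-reading mean of 0.46 ± 0.09 (SD, n = 2 arrays; limma adjusted p = 0.373) was close to those of the prophenoloxidases. Its channel-reading mean was -0.0645 ± 0.653. By contrast lz, which encodes the Runx factor that specifies crystal cells, had -0.125 on replicate 1 and 0.296 on replicate 2, the reverse order of PPO1 and PPO2. Its dye-reading mean was -0.21 ± 0.12 (limma adjusted p = 0.928). By channel its mean was 0.0855 ± 0.298, with the same sign as that of PPO1 and opposite in sign to that of PPO2. The engulfment receptor gene drpr had -0.131 and 0.244, a mean of -0.19 ± 0.08 in the dye reading.

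NimC1 lies in a cluster of Nimrod genes, with He, a mucin-like hemocyte surface gene, next to it. Of these genes NimB4, which encodes a secreted Nimrod protein, had -0.181 on replicate 1 and -0.263 on replicate 2, with a channel-reading mean of -0.222 ± 0.058 (SD, n = 2 arrays; limma adjusted p = 0.764). NimC2, another receptor of the cluster, had 0.108 and 0.072, and He had 0.061 and 0.033. The cluster thus held values on both sides of 0 read by channel.

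The genes of lamellocytes included the third prophenoloxidase. PPO3 had 0.279 on replicate 1 and 0.194 on replicate 2, both positive as deposited, unlike PPO1 and PPO2. Its mean was 0.0425 ± 0.335 by dye and 0.236 ± 0.0601 by channel (SD, n = 2 arrays; limma adjusted p = 0.75 in the channel reading). Whether PPO3 differed from the other prophenoloxidases was not tested. The filamin gene cher had 0.269 and -0.235, a dye-reading mean of 0.252 ± 0.024, and ItgaPS4, an integrin alpha chain of lamellocytes, had 0.104 and -0.03, a mean of 0.067 ± 0.0523. The integrin beta chain gene mys had 0.088 and 0.114, a channel-reading mean of 0.101 ± 0.0184. Of 5 listed genes 4 were measured on both arrays, with medians of 0.0547 by dye and 0.069 by channel, and limma called 0 of their probes in either reading, with 1 of 4 at an unadjusted p under 0.05 in each, against the same shares of all probes. The probe sequences are not used here, so how far the related prophenoloxidase transcripts share a probe was not tested.

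Melanin formation needs the enzymes and inhibitors of the prophenoloxidase cascade and the catecholamines that phenoloxidase acts on. Of 15 listed genes 12 were measured on both arrays, with a median of 0.0822 by dye and -0.0123 by channel. By dye, 7 genes were positive and 0 negative on both arrays, against 21.9% and 25.6% of all genes tested. By channel 1 was positive and 4 were negative, against 28.1% and 24.3%. Of 16 tested probes 6 had an unadjusted limma p under 0.05 by dye, against 6% of all probes, with 0 passing after adjustment. By channel 0 of these probes had an unadjusted limma p under 0.05, against 6.52% of all probes. The highest dye-reading means were those of catecholamine synthesis. The tyrosine hydroxylase gene ple had 0.752 on replicate 1 and -0.711 on replicate 2, a dye-reading mean of 0.73 ± 0.03 (SD, n = 2 arrays; limma adjusted p = 0.205). Pu, which encodes the GTP cyclohydrolase that supplies the cofactor of that enzyme, had 0.51 ± 0.04 over 2 probes, and the dopa decarboxylase gene Ddc had 0.29 ± 0.03 over 3 probes. The Ddc probes disagreed: probes 110 and 7197 had dye-reading means of 0.42 and 0.38, while probe 6861 had -0.146 and -0.258, a dye-reading mean of 0.056. These genes also serve the tanning of the cuticle and the making of dopamine. The named regulators of the cascade had dye-reading means nearer to 0. By channel the order was the reverse, with means of 0.0205 for ple, -0.027 for Pu and -0.0182 for Ddc. Hayan, a protease that activates prophenoloxidase, had -0.07 and -0.19, and Spn27A, the serpin that restrains the cascade, had -0.129 and -0.214. Their dye-reading means were 0.06 ± 0.184 and 0.0425 ± 0.2425. Their channel-reading means were -0.13 ± 0.0849 and -0.172 ± 0.0601, with limma adjusted p of 0.874 and 0.807. Tg, the transglutaminase of clot formation, had -0.124 and -0.086, a channel-reading mean of -0.105 ± 0.0269.

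The basement membrane list held the partners of collagen IV. Of its 14 genes 13 were measured on both arrays, with medians of -0.051 by dye and 0.0455 by channel. By dye 3 were positive and 3 negative on both arrays, against 21.9% and 25.6% of all genes tested. By channel 5 were positive and 2 negative, against 28.1% and 24.3%. The laminin chain genes LanA and LanB2 had -0.238 and -0.105 on replicate 1 and 0.329 and 0.431 on replicate 2. Their dye-reading means were -0.28 ± 0.06 and -0.27 ± 0.23, opposite in sign to those of Col4a1 and vkg. In that reading Col4a1 itself had opposite signs on the arrays. By channel the means of LanA and LanB2, 0.0455 and 0.163, had the same sign as those of Col4a1 and vkg. The papilin gene Ppn had 0.313 and -0.309, a dye-reading mean of 0.31 ± 0.0028. The nidogen gene Ndg, whose product links laminin and collagen IV, had 0.457 and 0.232, a channel-reading mean of 0.34 ± 0.16 (SD, n = 2 arrays; limma adjusted p = 0.729). The perlecan gene trol had a channel-reading mean of -0.0812 ± 0.0012 over 3 probes. Its single probes had wider channel-reading SDs, of 0.0976, 0.1075 and 0.0064. Among them probe 2258 had opposite signs on the arrays, 0.003 and -0.149. Loxl1, a lysyl oxidase gene, had a channel-reading mean of 0.0835 ± 0.0219. Limma called 0 of the 15 tested probes of this list in either reading, with 2 at an unadjusted p under 0.05 by dye, against 6% of all probes, and 1 by channel, against 6.52%.

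**Figure D4:**
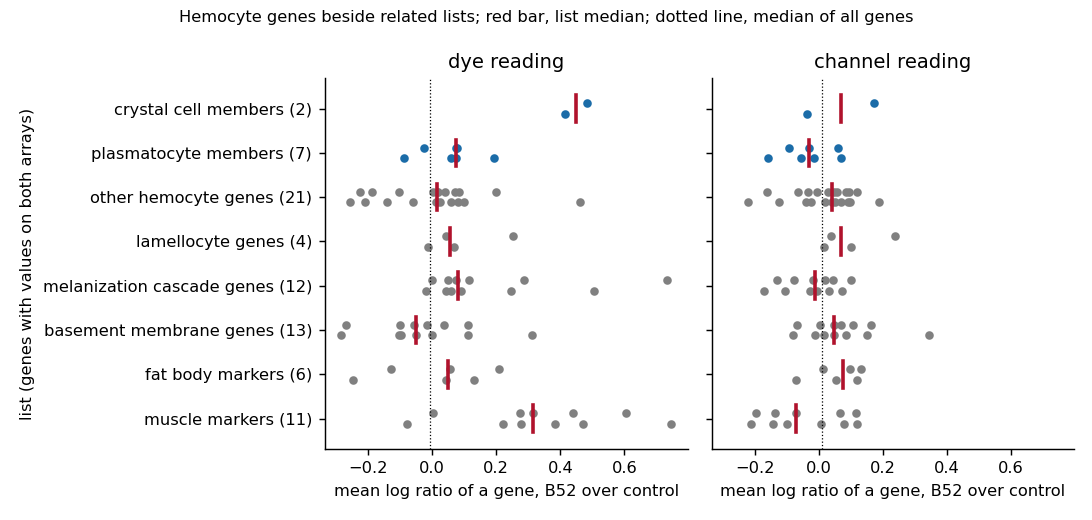
Mean log ratio of each gene as B52 over control (horizontal axis) by list, read by dye (left) and by channel (right), with a bar at each list's median and a dotted line at the median of all genes tested. In the dye reading the prophenoloxidase pair and the muscle markers lay highest, with medians of 0.448 and 0.314, and in the channel reading the same lists had medians of 0.068 and -0.072.

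Markers of other tissues also had values away from 0, and their part in the prophenoloxidase values was not tested. Of 16 muscle genes listed, 11 were measured on both arrays, with a dye-reading median of 0.314 and a range of -0.0775 to 0.746. By dye 9 of these were positive and 1 negative on both arrays, against 21.9% and 25.6% of all genes tested. By channel 1 was positive and 0 negative, against 28.1% and 24.3%. As deposited, the muscle values ran between -0.0105 and 0.72 on replicate 1 and between -0.844 and 0.144 on replicate 2. The troponin T gene up, the tropomyosin gene Tm2 and the Z-disc gene Zasp52 had opposite signs on the arrays, as PPO2 did. Their dye-reading means were 0.75 ± 0.14, 0.60 ± 0.16 and 0.44 ± 0.0095 (SD, n = 2 arrays). The 2 Zasp52 probes differed in size, with dye-reading means of 0.528 and 0.3515. The flight muscle actin gene Act88F had 0.123 and 0.116, a channel-reading mean of 0.12 ± 0.005. Of 10 fat body genes listed, 6 were measured on both arrays. By dye 2 were positive and 2 negative on both, and by channel 2 were positive and 0 negative, against the same shares of all genes. Their dye-reading median was 0.0485, in a range of -0.246 to 0.21. Within it FASN1, a fatty acid synthase gene, had a dye-reading mean of -0.246 ± 0.0735, Desat1, a desaturase gene, 0.21 ± 0.136 and the storage protein gene Lsp2 0.13 ± 0.0163. The fat body protein genes Fbp1 and Fbp2 had channel-reading means of 0.119 ± 0.0771 and 0.132 ± 0.0601. Limma called 0 probes of either list in either reading. At an unadjusted p under 0.05 there were 9 of 13 muscle probes and 2 of 7 fat body probes by dye, against 6% of all probes, and 0 of each by channel, against 6.52%.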

How the data were processed

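Each spot has 1 deposited log ratio per array, treated here as a score on a log scale of unstated base and direction. How the images were read and the values normalised is not stated in the labels. Per the labels, channel 1 held control RNA and channel 2 B52 RNA, with dyes swapped on replicate 2, and the control RNA of replicate 1 is labelled cytoplasmic and the other 3 channels polyA. Of 15744 spots, 13919 held a value on replicate 1 and 14026 on replicate 2. The code -10000, found 5 times, was treated as missing. Spots at 40 unnamed positions repeated in 24 sub-grids (960 spots) were taken as controls and left out. The platform annotation gave 1 symbol for 13147 probes, several for 99 and none for 2498. Of the first, 12519 were updated through the gene identifier to RefSeq symbols.

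The 12500 probes with values on both arrays were tested against 0, two-sided, with limma 3.58.1 (lmFit, eBayes) under R 4.3.3 (1 residual degree of freedom), adjusted by Benjamini-Hochberg at 0.05, and the fit was tested on simulated data. Each ± is the SD of the 2 arrays. For each gene its probes were averaged per array, over probes with values on both arrays. Lists were described by medians and counts without a test. An exact sign test on 2 arrays cannot go below p = 0.5. Tables and plots used Python 3.11.15, pandas 2.3.3, numpy 2.4.6 and matplotlib 3.10.9. The number of arrays limits the precision. The members and lists were chosen with earlier results of these data known. All members were named, and in each other list up to 3 genes per reading with the largest smaller absolute value among genes of the same sign on both arrays. The size of 0.301 was chosen after the values had been seen. Alternatives covered centring, scaling, the blocks of probe numbers, the variance model, the threshold, the probes of a gene, single arrays and the list without prophenoloxidases.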

Additional observations from a re-analysis of the deposited data

How the results depend on the processing

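Each deposited value is a ratio of both RNAs of an array, so the tests against 0 already used that pairing. No further pairing was possible with 1 group of arrays. Limma was rerun with arrays centred, scaled or freed of block medians, with robust eBayes and with 1 value per gene. Under these settings, and at an adjusted p of 0.1, it called 0 probes in both readings. At the threshold of 0.05 these settings left between 607 and 807 probes with an unadjusted p under 0.05 in the channel reading and between 581 and 915 in the dye reading. An ordinary one-sample test also called 0, with 725 (channel) and 600 (dye) probes at an unadjusted p under 0.05, leaving out 21 and 16 probes with equal values on both arrays in that reading. The median of the 9 genes in the dye reading, 0.076, was 0.0945 with block medians removed. On single arrays it was between 0.1 and 0.109, also positive. It was 0.076 without PPO1 and PPO2. The dye-reading means of PPO1 and PPO2 were 0.418 and 0.488 with arrays centred, and 0.4265 and 0.4828 with arrays scaled. With block medians removed they were 0.441 and 0.466. Scaling could not turn their sign, because both genes were positive on both arrays in this reading. The median in the channel reading, -0.032, was -0.109 on replicate 2 alone and 0.1 on replicate 1 alone. Read by channel, 2 genes had the same sign on both arrays. This was 1 with arrays centred (Pxn) and 1 with probes of a single value kept (Col4a1). With block medians removed it was 3, all negative (Hml, NimC1 and Pxn). The dye-reading count of 7 lay between 5 and 8 over the alternatives run, 5 being without the prophenoloxidase genes. A count of equal signs could not be had from 1 array. Without intensities, dim spots could not be told from bright ones.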

Other observations

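Some genes of these lists had a value on 1 array alone and entered no comparison. The lamellocyte surface gene atilla had 0.536 on replicate 1, and yellow-f2, a gene of the melanin pathway, had 0.51 on the same array. The protease gene psh had 0.519 on replicate 2, and 1 probe of Pxn had 0.312 there. Values of this size were more common among such probes in general. Of 646 probes with a value on replicate 1 alone, 33.6% lay at least 0.301 from 0, against 9.05% of tested probes on that array. Of 753 probes with a value on replicate 2 alone it was 30.0%, against 10.4% of tested probes.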
